A study of Ciona robusta with 16 samples.

Results

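This account follows the mRNA of whole *Ciona robusta* embryos across a single interval, from the late neurula (latN) to the middle tailbud II (midTII). The members are the 4 libraries of these stages, 2 for latN and 2 for midTII, out of 16 libraries that cover 8 stages from the unfertilized egg to the larva. The libraries were taken by their stage labels, while the interval itself was picked with earlier results of these data known. The latN embryos were wild type, at stage 16 and 7.4 h after fertilization, and the midTII embryos were wild type, at stage 22 and 10.9 h. By the study's methods both stages followed dechorionation and in vitro fertilization, and no other treatment is stated. Each sample pooled approximately 150 whole embryos, so a level is an average over all cell types and over embryos. Poly(A) RNA was sequenced in strand-specific libraries. Of 18424 rows in the count table, 18388 are genes of the KY21 gene set, and 14623 of these had enough counts to be tested between the 2 stages.

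*Ciona* is a tunicate, a sister group of the vertebrates, and its embryo builds a swimming tadpole with a notochord, a dorsal nerve cord and rows of tail muscle. During neurulation the neural plate rolls into a tube while muscle and notochord precursors take their places, and in the tailbud period the tail elongates, muscle cells assemble their contractile apparatus and the epidermis lays down the tunic and other matrix. Muscle and notochord cells stop dividing in this period, and the embryo neither feeds nor grows in mass.

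The 4 libraries held 24.6 and 24.6 M counts at latN and 26.1 and 30.8 M at midTII. Across the tested genes, Pearson's r of log2(TPM + 1) was 0.968 between the latN replicates, 0.971 between the midTII replicates, and 0.858 to 0.873 between libraries of different stages. TPM is a transcript abundance corrected for length and scaled to a fixed total per library, and is used here for levels. For the difference between the stages, edgeR's quasi-likelihood test was fitted to the counts of all 16 libraries, and a gene was called when its Benjamini-Hochberg adjusted p was under 0.05. With 2 libraries a stage, an exact permutation test of a single gene cannot go below p = 0.33, so each call relies on the spread shared over genes and stages. In simulated data made from these libraries, 100 genes were given a 4-fold change and 100 a 2-fold change among 14643, and the test found 65% of the former and 16% of the latter and called 5 unchanged genes. With so few changed genes the adjusted threshold is stricter than in the data, so these shares do not carry over to the calls below. The symbol of a *Ciona* gene is that of its closest match in human or frog, and symbols were held for 3815 of the tested genes. A symbol therefore names a similarity, and a known role of the vertebrate gene is given as background only.

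Between the neurula and the tailbud, about as many genes rose as fell, but the rises reached much further. By edgeR, 4927 of the 14623 tested genes (33.7%) were called, 2464 higher in midTII (16.9%) and 2463 lower (16.8%). The median log2 fold change was 1.96 among the genes that rose and -1.07 among those that fell. At least 4-fold changes numbered 1217 upward and 242 downward, and at least 16-fold changes 479 upward and 47 downward. For 171 of the genes that rose, both latN libraries held 3 or fewer counts, so their fitted folds are not reliable in size. The same was true at midTII for 32 of the genes that fell. In 4644 called genes the TPM values of the 2 stages did not overlap. With 2 libraries a stage this is a weak criterion, and its share over all tested genes was not counted. Genes that were not called also met it, such as *STAT5A* at 111 and 103 TPM in latN and 69.1 and 81.3 in midTII.

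**Figure D1:**
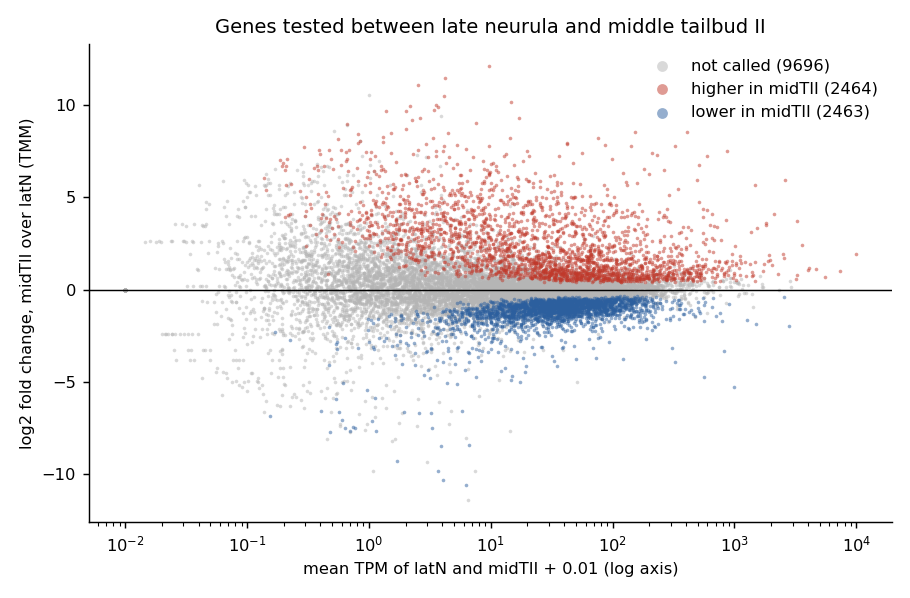
Each point is 1 of the 14623 tested genes, with its mean TPM over both stages on the x axis (log scale) and its fitted log2 fold change of midTII over latN on the y axis. The 2464 genes called higher (red) reach far from 0, while most of the 2463 genes called lower (blue) lie within 4-fold of it.

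The balance of the directions depended on how the libraries were scaled. TMM factors, which centre the bulk of genes, were 1.01 and 1.07 at latN and 0.776 and 0.768 at midTII, and put the median log2 fold change of all tested genes at 0.00. Without such factors, on library totals, the median was -0.41. It was 0.18 for RLE factors and -0.34 for limma on log2(TPM + 1). Higher genes were 2464 of the 4927 called with TMM, while their share was 61.6% for RLE factors, 26.9% for library totals and 29% for limma. With library totals 1600 genes were called higher (10.9%) and 4355 lower (29.8%). No gene called with TMM was called in the opposite direction with library totals, and 1505 rises and 1825 falls were called alike under TMM, RLE factors, library totals, DESeq2 and limma. The greater reach of the rises held with library totals, at 948 against 541 genes changed at least 4-fold and 362 against 73 changed at least 16-fold. A gene with the same TPM at both stages is fitted as somewhat higher in midTII on the TMM scale, so a fitted fold change can exceed the ratio of TPM values printed beside it. Among the genes with a symbol, 14.4% were called higher and 28% lower, and the lists below are drawn from these genes.

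**Figure D2:**
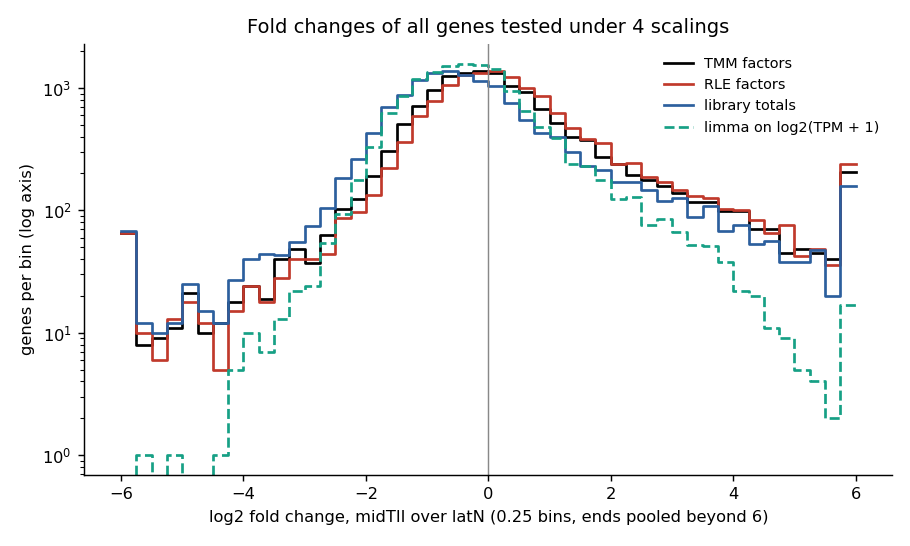
The lines count tested genes in log2 fold change bins of 0.25 (log y axis) under TMM factors, RLE factors, library totals and limma on log2(TPM + 1), with values beyond 6 pooled in the end bins. The curves of TMM factors, RLE factors and library totals shift sideways by the differences in their medians (0.00, 0.18 and -0.41). The limma curve, with a median of -0.34, is also narrower, with 0 and 17 genes in its end bins against 65 and 207 for TMM. The upward tail is heavier than the downward tail under TMM, RLE factors and library totals.

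In units of TPM, the genes that rose made up 25% and 23.8% of the KY21 signal in the latN libraries and 51.6% and 52.1% in the midTII libraries. Those that rose at least 4-fold went from 2.43% and 2.23% to 17% and 16.7%. Genes that fell shrank from 25.4% and 26.3% to 9.2% and 9.44%. The 100 most abundant genes of each library held 19% and 18% of the signal at latN and 26.9% and 26.5% at midTII, so the tailbud pool was the more concentrated one. These shares are descriptive, since the calls that define the sets come from the same libraries.

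Contractile genes, which in the tadpole serve mostly the tail muscle, had the largest share of rises among the 25 lists. Of the 20 tested members of a list of sarcomere and contraction genes, 18 rose (90%) and 1 fell, with a median log2 fold change of 1.80, and the same counts were found with library totals. Leaving out any 1 library left 17 or 18 rises. The summed TPM of the list was 5020 and 4142 in the latN libraries and 9942 and 10751 in the midTII libraries, so the stages stood clearly apart. In whole embryos, more cells of a type and more RNA per cell cannot be told apart.

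The 3 largest rises of the list started at under 10 TPM. *NEB*, the match of nebulin, a giant protein that runs along the thin filament, stood at 2.35 and 2.92 TPM in latN and at 47.9 and 48.2 in midTII (log2 fold change 4.67 ± 0.32 (SE), edgeR adjusted p = 2.7e-07). *STAC3*, which in vertebrates takes part in coupling excitation to calcium release in skeletal muscle, went from 2.52 and 1.84 TPM to 33.3 and 41.3 (4.56 ± 0.34). *NEXN*, the match of the actin-binding protein nexilin, went from 5.56 and 6.92 TPM to 84.6 and 75.7 (4.16 ± 0.59). In each of these genes the lower midTII library was more than 10 times the higher latN library. Other members were well expressed in the neurula and rose by less. *TTN*, the match of titin, went from 48.1 and 39.4 TPM to 161 and 199 (2.50 ± 0.31), and *MYOM1*, the match of the M-line protein myomesin, from 100.4 and 96.8 to 191 and 189 (1.41 ± 0.31). *ACTN2*, alpha-actinin of the Z disc, went from 569.6 and 453 TPM to 1304 and 1456 (1.90 ± 0.16), *TNNI1*, a troponin I, from 716 and 539 to 1285 and 1894 (1.80 ± 0.31), and *MYH7*, a myosin heavy chain, from 519 and 442 to 1070 and 946 (1.54 ± 0.23). The calcium pump match *ATP2A1*, which refills the sarcoplasmic reticulum, has 2 copies, 1 of which was the most abundant member by the mean of both stages. That copy stood at 851 and 546 TPM in latN and 1495 and 1563 in midTII (1.59 ± 0.28), and the other copy also rose (1.30 ± 0.19). *MYO18B*, an unconventional myosin, was the exception. It fell from 93 and 122 TPM to 35.9 and 47.9 (-0.89 ± 0.19, edgeR adjusted p = 0.0026), and its mean was highest in the fertilized egg, at 276. *TPM1*, a defining marker, was listed at 0 in all 4 libraries. The other muscle markers had a mean TPM of 2 or more at both stages.

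Matrix and basement membrane genes rose over a wider range than muscle genes. Among 34 tested extracellular matrix genes 18 rose and 3 fell, with a median log2 fold change of 0.86 (15 and 3 with library totals). Leaving out a library gave 16 or 17 rises. Summed over the list, TPM was 4467 and 3761 in latN and 10345 and 11870 in midTII. *COL12A1*, the match of a collagen that coats fibrils, was almost undetected in latN, at 0.624 and 1.05 TPM, and reached 33.5 and 43.2 in midTII (5.99 ± 0.24, edgeR adjusted p = 4.2e-09). *SVEP1*, a large secreted protein with many adhesive domains, had 2 matches. The more abundant copy rose from 3.82 and 4.53 TPM to 217 and 259 (6.30 ± 0.38), and the other copy was listed at 0 in both latN libraries and at 3.31 and 2.77 in midTII. *LTBP4*, which in mammals binds latent TGF-beta to elastic fibres, rose from 2.8 and 1.84 TPM to 31.8 and 18.8 (3.92 ± 0.35). *NID2*, the match of the basement membrane linker nidogen, rose from 1346 and 1145 TPM to 2716 and 2639 (1.57 ± 0.20). A pair of genes for secreted proteins moved the other way. *ADAMTS15*, the match of a matrix-cutting metalloprotease, fell from 71.6 and 75.5 TPM to 12.1 and 16.2 (-1.91 ± 0.37), and *SBSPON*, a somatomedin B and thrombospondin domain protein, from 148 and 156 to 49.8 and 40.9 (-1.27 ± 0.26).

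Genes for cell adhesion, which tie cells to the matrix and to each other, were called higher more often than lower with TMM, but not with library totals. Of 24 tested genes for integrins and junction proteins 7 rose (29.2%) and 1 fell (4.17%), with a median of 0.20. Among all tested genes with a symbol these shares were 14.4% and 28%. With library totals 2 rose and 7 fell, and leaving out a library gave 2 (without latN replicate 2), 3 (without midTII replicate 1 or midTII replicate 2) or 4 rises (without latN replicate 1), so the count of rises is not stable. Only *ITGB4* and *CTNNAL1* were called higher by TMM, RLE factors, library totals, DESeq2 and limma and with any library left out. *ITGB4*, the match of an integrin beta chain that anchors vertebrate epithelia to the basement membrane, rose from 17.8 and 18.4 TPM to 139 and 156 (3.49 ± 0.30, edgeR adjusted p = 2.6e-06). *CTNNAL1*, related to alpha-catenin, rose from 18.2 and 20.9 TPM to 35.5 and 43.3 (1.48 ± 0.15). The most abundant member, the proteoglycan *SDC4*, stood at 741 and 694 TPM in latN and 643 and 564 in midTII and was not called.

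Neuronal genes moved in both directions. Of 39 tested genes for neurons and synapses 15 rose and 7 fell (median 0.49), against 10 and 12 with library totals. Leaving out a library gave 11 to 14 rises and 3 to 5 falls, with 4 falls without latN replicate 1 or latN replicate 2 and 3 without midTII replicate 2. The summed TPM of the list overlapped between stages, at 2162 and 2323 in latN and 1987 and 2198 in midTII. Calcium sensors differed among themselves. *SCGN*, the match of secretagogin, went from 2.3 and 2.15 TPM to 23.6 and 26.4 (3.95 ± 0.44), and *HPCAL4*, a hippocalcin-like protein, from 1.36 and 0.479 to 7.48 and 19.8 (4.31 ± 0.69). *HPCAL1*, of the same neuronal calcium sensor family, was at 167 and 186 TPM in latN and 127 and 127 in midTII and was not called (-0.01 ± 0.13). *ADGRB3*, the match of a synaptic adhesion receptor, rose from 8.16 and 5.57 TPM to 227 and 281 (5.67 ± 0.27, edgeR adjusted p = 1.3e-08). *NOVA2*, a neuronal splicing factor and a marker of neurons, rose from 48 and 32.5 TPM to 103 and 124 (1.96 ± 0.29). *SNAP25*, a membrane fusion protein of synaptic vesicles, stood at 109 and 113 TPM in latN and 72.1 and 72.3 in midTII and was not called (-0.15 ± 0.15). Among the falls, *CNTNAP1*, a contactin-associated adhesion protein, went from 54.4 and 69 TPM to 12.8 and 14.8 (-1.69 ± 0.17), and the sodium channel match *SCN4A* from 13.4 and 20.5 to 3.77 and 6.82 (-1.21 ± 0.27). *CNTNAP1* was at its highest in the 16-cell embryo, with a mean of 180.3 TPM.

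Of 8 tested genes of the pigmented sensory organs, 2 rose and 1 fell, and each of these calls held with library totals and with any library left out. *RLBP1*, which binds 11-cis-retinal in the vertebrate eye, rose from 19.6 and 9.82 TPM to 138 and 129 (3.64 ± 0.40), and *RGR*, a retinal-binding opsin, from 129 and 112 to 436 and 379.5 (2.22 ± 0.18). A retinol dehydrogenase match, *RDH13*, fell in 1 of its 2 copies, from 51.8 and 47.5 TPM to 9.37 and 10.7 (-1.84 ± 0.26). The melanin enzyme *TYR* stayed low, at 3.68 and 2.13 TPM in latN and 1.83 and 6.77 in midTII, with overlapping stages. The notochord marker *T*, or Brachyury, was at 6.48 and 7.89 TPM in latN and 11.7 and 11.2 in midTII. It did not pass the test (edgeR adjusted p = 0.21), although its TPM values did not overlap.

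**Figure D3:**
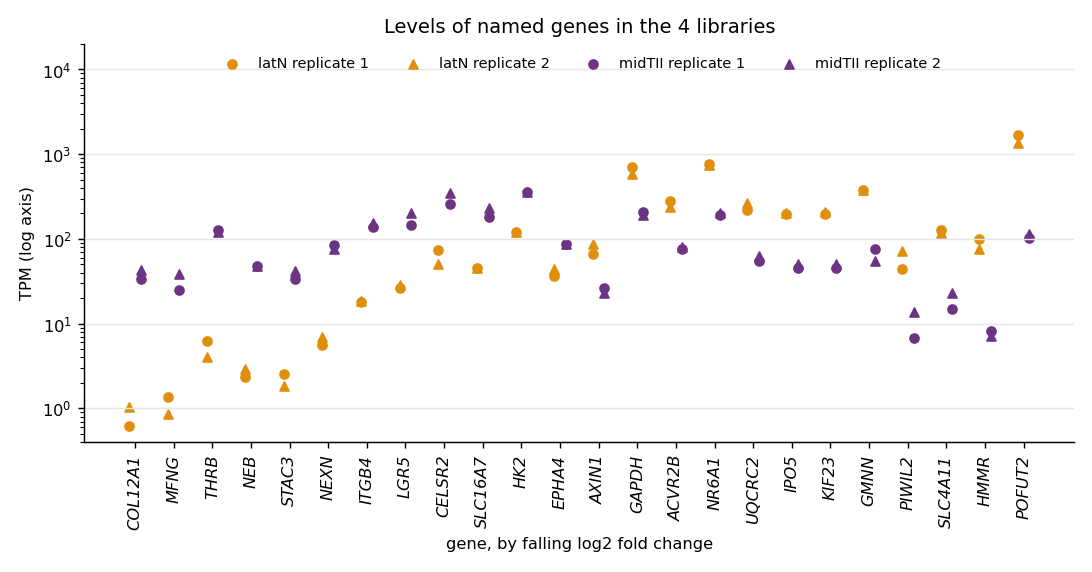
TPM (log axis) of 24 named genes in the 2 latN libraries (orange) and the 2 midTII libraries (purple), with circles for replicate 1 and triangles for replicate 2 and genes in order of falling log2 fold change. The stages do not overlap in any gene shown, which for most follows from the rule that named them. Of the 2 *EPHA4* genes only the one that rose is drawn. The order runs from *COL12A1*, at 0.624 and 1.05 TPM in latN and 33.5 and 43.2 in midTII, to *POFUT2*. The latter stood at 1692 and 1358 in latN and 104 and 113 in midTII.

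Transcription factors with a symbol included rises of widely different size. Of 33 tested developmental factors 8 rose (24.2%) and 3 fell (median 0.26), and 7 rises and 7 falls were called with library totals. With a library left out, 6 to 8 rose and 1 or 2 fell (1 without midTII replicate 1). *THRB*, the match of a thyroid hormone receptor, a nuclear receptor that drives metamorphosis in frogs, rose from 6.29 and 4.03 TPM to 129 and 121 (5.06 ± 0.26, edgeR adjusted p = 2.2e-08). *HOXD10*, the match of a posterior Hox gene, rose from 0.0732 and 0.411 TPM to 5.14 and 6.13, then to a mean of 53.6 in the late tailbud II and 165 in the larva. *TEAD4*, a DNA-binding partner of the Hippo pathway, rose from 18.6 and 16.9 TPM to 50.7 and 66.5 (2.19 ± 0.28), and *ZFHX4*, a zinc finger homeobox factor, from 20.4 and 17.9 to 38.8 and 43 (1.56 ± 0.26). The smaller rises were *MEIS2* (1.37), *MXI1* (0.85) and *CREB1* (0.61), and *CREB1* overlapped between stages, at 155 and 136 against 148 and 175 TPM. Without latN replicate 2 the adjusted p was 0.064 for *MEIS2* and 0.15 for *CREB1*, which was also lost without midTII replicate 2 (0.1). *ARID3A*, an AT-rich interaction domain factor, had a transient course. It rose from 22.6 and 21.8 TPM to 945 and 972 (5.90 ± 0.18), its highest mean of the 8 stages, and stood at a mean of 438 in the late tailbud II and 103 in the larva. *NR6A1*, the match of an orphan nuclear receptor that in the mouse takes part in building the trunk, went in the other direction. Its mean was 72.9 TPM in the gastrula, it stood at 759 and 739 in latN and it fell to 193 and 201 in midTII (-1.45 ± 0.16, edgeR adjusted p = 2e-05). The neural plate border match *MSX2* also fell, from 80.3 and 64.1 TPM to 20 and 15.5. That call was lost whichever library was left out, with an adjusted p of 0.18 without latN replicate 1, 0.074 without latN replicate 2, 0.096 without midTII replicate 1 and 0.2 without midTII replicate 2. The paired-box match *PAX7*, at 52.2 and 59 against 37.8 and 65.1 TPM, was not called, and its stages overlapped.

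Signalling genes moved in both directions, in equal number with TMM. Of 40 tested ligands, receptors and modulators 11 rose and 11 fell, with a median of -0.12 (7 and 17 with library totals). Each direction made up 27.5%, so with TMM the share of falls was near the 28% of all tested genes with a symbol. The share of rises was above their 14.4%. With a library left out, 8 or 9 rose and 5 to 10 fell, with 7 falls without latN replicate 1 or midTII replicate 1 and 5 without midTII replicate 2. In the Notch pathway a membrane ligand on 1 cell activates a receptor on its neighbour. Matches of the receptor and of an enzyme that modifies it were both called higher. *MFNG*, the match of the glycosyltransferase manic fringe, which tunes the choice of ligand, went from 1.36 and 0.863 TPM to 25.2 and 39 (5.31 ± 0.44, edgeR adjusted p = 1.9e-06). Of 2 genes matched to the receptor *NOTCH2*, the first rose from 10.4 and 19.9 TPM to 184 and 195 (4.12 ± 0.56) and the second from 23.9 and 25.4 to 74.9 and 79.7 (2.12 ± 0.38). The ligand match *DLL1* was low at both stages, at 1.8 and 2.74 TPM and 4.48 and 2.92, and was not called. The ligand match *JAG1* was called higher, at 43.3 and 39.6 against 55.3 and 61.3 TPM (0.96, edgeR adjusted p = 0.014), but that call held in 1 of the 4 fits with a library left out, with an adjusted p of 0.11 without latN replicate 2, 0.051 without midTII replicate 1 and 0.066 without midTII replicate 2. *MIB1*, a ubiquitin ligase that acts on Notch ligands, had 2 copies called in opposite directions. The copy that rose overlapped between stages, at 12.3 and 19.6 against 26.7 and 17.3 TPM (0.96), with an adjusted p of 0.15 without latN replicate 1 and 0.21 without midTII replicate 1, and the copy that fell went from 2.19 and 3.03 to 0.777 and 0.506 (-1.55).

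Wnt signalling, which acts through LRP and Frizzled receptors and a destruction complex built on axin, changed in its parts in different directions. *LGR5*, an R-spondin receptor that raises Wnt sensitivity in vertebrates, rose from 26.7 and 28.8 TPM to 145 and 202 (3.11 ± 0.26), and *LRP4*, of the LDL receptor family, from 44 and 39.7 to 151 and 159 (2.35 ± 0.27). *LRP6*, of the same family, stood at 282 and 257 TPM in latN and 149 and 171 in midTII. Its fitted change of -0.29 ± 0.23 was not called with TMM, while it was called lower with library totals (edgeR adjusted p = 0.016). *CELSR2*, an atypical cadherin of planar cell polarity, rose from 73.3 and 51.3 TPM to 257 and 347 (2.73 ± 0.32). *AXIN1* fell from 67.3 and 87.6 TPM to 26.4 and 23.2 (-1.16 ± 0.15, edgeR adjusted p = 5.9e-05). The kinase match *GSK3B* was abundant at both stages, at 549 and 500 TPM and 327 and 324, and its fitted change of -0.22 did not pass with TMM, while it did with library totals (adjusted p = 0.0024). The ligand *WNT5B* was at 95.2 and 98.6 TPM in latN and 63.5 and 93.1 in midTII and was not called. Also called in the signalling list with TMM were *LGR4* (1.11), higher, and *RYK* (-0.96), *KREMEN1* (-1.12) and *SFRP5* (-0.45), lower. Each of these calls was lost with some library left out.

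Among the other signalling genes, receptors and ligands were called in both directions. The activin receptor match *ACVR2B* fell from 279 and 241 TPM to 75.5 and 80.6 (-1.27 ± 0.19), and *TGFB1*, the match of a TGF-beta ligand, from 25 and 34 to 9.61 and 10 (-1.11 ± 0.20). *SEMA3E*, a secreted semaphorin, fell from 10.3 and 13.5 TPM to 2.44 and 3.99 (-1.42 ± 0.25). In the Eph family of contact receptors, 2 neighbouring identifiers carry the symbol *EPHA4*. One rose from 36.4 and 44.3 TPM to 87.7 and 86.6 (1.59 ± 0.19) and the other stood at 64.3 and 58.9 against 46 and 51 and was not called (0.12 ± 0.26). The ephrin match *EFNB3* was called higher, at 70.0 and 79.7 against 92.6 and 94.4 TPM (0.80), a call that was lost whichever library was left out, at adjusted p 0.12 without latN replicate 1, 0.11 without latN replicate 2 or midTII replicate 1 and 0.084 without midTII replicate 2.

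Secreted proteins and transporters were called in both directions. Of 10 tested trefoil factors, mucins and secreted protease inhibitors 5 rose and 1 fell (4 and 2 with library totals), and these counts were the same with any library left out. *ITIH3*, the match of a serum inhibitor chain that binds hyaluronan, rose from 6.24 and 7.15 TPM to 60.3 and 87.3 (3.93 ± 0.37), and *SERPINI1*, a serpin of the vertebrate nervous system, from 3.15 and 2.29 to 20.5 and 21.6 (3.41 ± 0.58). Trefoil factors are small, stable peptides of mucous surfaces, and the 3 matches took 3 courses. *TFF1* was already at 3205 and 3254 TPM in latN and rose to 5210 and 4359 (1.04 ± 0.15), *TFF3* rose from 3.69 and 3.63 to 71.3 and 104 (5.02 ± 0.32), and *TFF2* fell from 595 and 541 to 43.5 and 48.9 (-3.15 ± 0.22, edgeR adjusted p = 2.8e-07). Of 33 solute carriers 10 rose and 3 fell (6 and 10 with library totals, and 6 rises without latN replicate 2). *SLC16A7*, a monocarboxylate transporter, rose from 45.4 and 44.9 TPM to 182 and 233 (2.67 ± 0.24), and the organic cation carrier match *SLC22A3* from 25.2 and 23.2 to 75.9 and 173 (2.82 ± 0.41). *SLC4A11*, of the bicarbonate transporter family, fell from 128 and 119 TPM to 15.1 and 22.9 (-2.24 ± 0.23), and *SLC30A2*, a zinc exporter, from 473 and 470 to 130 and 107 (-1.52 ± 0.18).

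Genes of the secretory machinery were called in both directions with either scaling. Of 45 genes for protein entry and folding in the endoplasmic reticulum 18 rose and 8 fell (median 0.16), and with library totals 9 rose and 17 fell. With a library left out, 13 or 14 rose and 4 to 7 fell, with 4 falls without latN replicate 1 or midTII replicate 1. *STT3A*, the catalytic subunit that transfers glycans to nascent proteins, rose from 275 and 289 TPM to 672 and 760.4 (1.81 ± 0.25). *SSR3*, a subunit of the translocon-associated complex, rose from 1155 and 1261 TPM to 3102 and 1957 (1.55 ± 0.24), and *KDELR2*, the receptor that returns chaperones to the endoplasmic reticulum, from 1437 and 1459 to 2487 and 2733 (1.32 ± 0.14). *MESD*, a chaperone of LRP receptors, fell from 112 and 94.2 TPM to 39.8 and 31.2 (-1.07 ± 0.23).

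Genes of cell division fell in most cases. Of 62 tested genes of mitosis and cytokinesis 46 fell and 2 rose, with a median log2 fold change of -0.89, and 35 of the falls were called by all 5 methods. Leaving out a library gave 34 to 39 falls. The summed TPM was 6851 and 7021 in latN and 2884 and 3060 in midTII. *HMMR*, the match of a spindle-associated hyaluronan receptor, had the largest fall, from 100.4 and 76.1 TPM to 8.27 and 7.06 (-3.06 ± 0.24, edgeR adjusted p = 1.2e-06). *KIF23*, a kinesin of the central spindle needed for cytokinesis, fell from 199 and 210.4 TPM to 45.2 and 51.3 (-1.62 ± 0.19), and *HAUS6*, a subunit of the augmin complex that seeds spindle microtubules, from 22.4 and 31.3 to 6.04 and 7.27 (-1.54 ± 0.24). The mitotic kinase *CDK1*, picked here after its values were seen, moved little by comparison, at 254 and 235 TPM against 159.8 and 154, and was not called with TMM (-0.17 ± 0.17). One of the 2 rises is a gene matched to *INCENP*, a scaffold of the chromosomal passenger complex. It went from 0.141 and 0.315 TPM to 23.4 and 29.3 (7.32 ± 0.70), whereas a second gene with the same symbol fell from 115 and 95 to 27 and 28.8 (-1.45 ± 0.22), as most of the list did. The name of the first is a closest match only.

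DNA replication genes fell with mitosis genes. Of 44 tested 23 fell and none rose by edgeR with TMM, with a median of -0.75, and 18 to 23 fell with a library left out. At an unadjusted edgeR p under 0.05, 2 rose and 25 fell, and after adjustment 2 rose with DESeq2 and none with limma, which called 36 falls. *GMNN*, geminin, which keeps origins from firing again and also holds neural cells in an undifferentiated state in vertebrates, had the largest fall, from 374 and 377 TPM to 76.9 and 54.2 (-2.04 ± 0.25, edgeR adjusted p = 4.5e-05). *POLD3*, a subunit of the replicative polymerase delta, fell from 25.1 and 20.3 TPM to 4.2 and 5.03 (-1.84 ± 0.28), and *MCMBP*, a binding partner of the replicative helicase, from 37.3 and 42.3 to 6.63 and 11.8 (-1.65 ± 0.35). *RRM2*, the ribonucleotide reductase subunit that was the most abundant member, stood at 693 and 753 TPM in latN and 426 and 373 in midTII and did not pass with TMM (adjusted p = 0.082), while it did with library totals (adjusted p = 0.0012). The checkpoint clamp match *HUS1* and *MTBP*, which takes part in firing origins, were among the largest falls of all genes with a symbol. *HUS1* went from 34.9 and 48.1 TPM to 5.89 and 6.17 (-2.30 ± 0.24) and *MTBP* from 39.9 and 44.2 to 5.3 and 6.82 (-2.33 ± 0.22).

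Germline genes, whose products protect the genome of the germ cells, fell in most cases. Of 10 tested genes of the germ line and of the piRNA pathway, which silences transposons, 6 fell and 1 rose, and 6 falls were called by all 5 methods. *PIWIL2*, a piRNA-binding argonaute, fell from 44 and 72.8 TPM to 6.73 and 13.6 (-2.05 ± 0.28), and *TDRD9*, a helicase of the pathway, from 28.8 and 41.6 to 4.87 and 6.17 (-2.20 ± 0.20, edgeR adjusted p = 3.6e-06). *PIWIL1* stood at 50.6 and 45.3 TPM against 32.6 and 28.9 and was not called (-0.17 ± 0.18). The single rise, *TDRD5*, at 80.7 and 73.9 against 89 and 101 TPM, was lost with library totals (adjusted p = 0.29) and whichever library was left out, at adjusted p 0.054 without latN replicate 1, 0.16 without latN replicate 2, 0.069 without midTII replicate 1 and 0.11 without midTII replicate 2.

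Ribosomal protein genes of the cytosol were called in a single direction with TMM. Of 38 tested cytosolic ribosomal protein genes 15 rose and none fell by edgeR with TMM (23 and 0 at an unadjusted p under 0.05, 25 and 0 by DESeq2, 6 and 0 by limma), and all 38 lay above the median of all genes, with a list median of 0.66. The number that rose was 6 with library totals, 7 without latN replicate 2 and 20 without latN replicate 1. The summed TPM was 11814 and 8862 in latN and 12018 and 12345 in midTII, so the latN replicates differed from each other by more than latN replicate 1 did from midTII. *RPSA*, the laminin-binding small subunit protein, had the largest rise, from 236 and 148 TPM to 404 and 568 (1.79 ± 0.34, edgeR adjusted p = 0.0015). *RPLP0*, the stalk protein and the most abundant member, stood at 3309 and 2435 TPM against 2862 and 2863, with overlapping stages. Of 50 mitochondrial ribosomal protein genes none rose and 9 fell (18%) by edgeR with TMM, with a median of -0.33. That share of falls is near the 16.8% of all tested genes and below the 28% of those with a symbol. The rises and falls were 0 and 16 at an unadjusted p under 0.05, 1 and 9 by DESeq2 and 0 and 29 by limma. *MRPL57* fell from 50.7 and 42.2 TPM to 9.92 and 10.1 (-1.74 ± 0.31), and *MRPS18A* from 39.6 and 46.3 to 9.39 and 9.43 (-1.71 ± 0.23).

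Genes of ribosome biogenesis and aminoacyl-tRNA synthetases fell more often than they rose. Of 83 ribosome biogenesis genes 32 fell, 4 rose and 47 were not called (median -0.46). The falls made up 38.6% and the rises 4.82%, against 28% and 14.4% of all tested genes with a symbol. The falls numbered 58 with library totals, 19 without latN replicate 1 or midTII replicate 2, 18 without midTII replicate 1 and 25 without latN replicate 2. The nucleolar match *RRP1B* fell from 133 and 109.6 TPM to 33.8 and 39.9 (-1.26 ± 0.19), and *DHX37*, a helicase of the small subunit processome, from 132 and 129 to 35.3 and 45.7 (-1.22 ± 0.17). *NCL*, nucleolin, stood at 546 and 506 TPM against 354 and 380.3 and was not called with TMM. Of 19 aminoacyl-tRNA synthetases 11 fell (57.9%) and none rose by edgeR, with a median of -0.69. The counts were 11 and 0 at an unadjusted p under 0.05, against 10 and 0 by DESeq2 and 17 and 0 by limma or with library totals. The mitochondrial enzymes had the largest falls, among them *AARS2*, from 59 and 87.2 TPM to 17.6 and 17.3 (-1.59 ± 0.18), and *PARS2*, from 15.7 and 17.2 to 3.76 and 3.4 (-1.72 ± 0.28).

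Genes of the respiratory chain fell in part, and those of glycolysis and the citric acid cycle were called in both directions. Of 37 genes of the respiratory chain and ATP synthase 18 fell and none rose by edgeR (19 and 0 at an unadjusted p under 0.05, 14 and 1 by DESeq2, 22 and 0 by limma), with a median of -0.63. Leaving out a library gave 11 falls without latN replicate 1 or midTII replicate 1, 13 without midTII replicate 2 and 15 without latN replicate 2. *UQCRC2*, a core subunit of complex III, fell from 219 and 264 TPM to 54.3 and 63.7 (-1.56 ± 0.14, edgeR adjusted p = 3.6e-06), and *ATP5PD*, in the stalk of the ATP synthase, from 198 and 187 to 38.2 and 44.2 (-1.76 ± 0.24). The list was highest early, at a mean summed TPM of 12373 in the fertilized egg, and had already come down to 5923 in latN. Of 24 genes of glycolysis and the citric acid cycle 9 fell and 3 rose. The 3 that rose match kinases of glycolysis. *HK2*, hexokinase, which traps glucose in the cell, went from 122 and 122 TPM to 354 and 362 (2.02 ± 0.14, edgeR adjusted p = 3.7e-07), *PFKM*, phosphofructokinase, from 36.6 and 42.9 to 57.9 and 77.1 (1.23 ± 0.16) and *PKM*, pyruvate kinase, from 83 and 87.9 to 104 and 129 (0.92 ± 0.20). The rise of *PKM* did not pass with library totals (adjusted p = 0.07). The 9 that fell include *GPI*, glucose-6-phosphate isomerase, at 140.2 and 197 TPM against 41.5 and 52.7 (-1.36 ± 0.16) and *GAPDH* at 714 and 581 against 207 and 193 (-1.23 ± 0.24).

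Genes of nuclear transport and of splicing fell more often than they rose, and more often than the 28% of all tested genes with a symbol. Of 35 genes of the nuclear pore and of transport 21 fell (60%) and 1 rose (28 falls with library totals), with a median of -0.72. *IPO5*, an importin, fell from 196 and 203 TPM to 45.7 and 50 (-1.59 ± 0.18), *RANGAP1*, which switches off the transport GTPase Ran, from 201 and 153 to 52.6 and 45.6 (-1.38 ± 0.20), and *RCC1*, which switches Ran on, from 148 and 145 to 38.7 and 45.7 (-1.33 ± 0.19). Of 57 spliceosome genes 23 fell (40.4%) and 2 rose (median -0.50, 38 falls with library totals). *CWC27*, a spliceosomal cyclophilin, fell from 23.3 and 36.3 TPM to 6.11 and 5.22 (-1.91 ± 0.28), and *SART3*, a recycling factor of small nuclear RNPs, from 67.7 and 73.3 to 13.7 and 18.1 (-1.68 ± 0.20). Of 27 proteasome genes 4 fell and 1 rose, with 13 falls under library totals and 2 or 3 with a library left out (2 without latN replicate 1, midTII replicate 1 or midTII replicate 2). With TMM the proteasome falls made up 14.8%, below the 28% of all tested genes with a symbol. *PSME3*, a nuclear activator of the proteasome, fell from 60.6 and 86.3 TPM to 21.7 and 21.9 (-1.28 ± 0.21).

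Cilium genes gave no common direction. Of 54 genes of the motile axoneme 11 rose (20.4%) and 1 fell (1.85%) with TMM, against 14.4% and 28% of all tested genes with a symbol. With library totals 5 rose and 10 fell, and fewer rose with any library left out than in the main fit. Of 45 genes of ciliogenesis and intraflagellar transport 10 fell (22.2%) and 3 rose (6.67%) with TMM, both below the shares of all tested genes with a symbol. With library totals 26 fell. *OFD1*, a protein of the basal body, fell from 20.9 and 30.9 TPM to 5.15 and 7.02 (-1.61 ± 0.27), and *CEP164*, which docks the basal body at the membrane, from 47.3 and 45.3 to 16.4 and 19.4 (-0.90 ± 0.17). *IFT88*, a core carrier of intraflagellar transport, was called higher with TMM, at 15.2 and 15.4 against 20.3 and 19.7 TPM (0.86 ± 0.21), and not with library totals (adjusted p = 0.14).

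Complement and innate immunity genes also moved both ways, with 5 rises and 5 falls of 21 tested. Each direction made up 23.8%, against 14.4% called higher and 28% called lower among all tested genes with a symbol. With library totals 3 rose and 8 fell, and with a library left out 2 to 4 rose and 3 to 5 fell (2 rises and 3 falls without latN replicate 2 or midTII replicate 1, 3 of each without midTII replicate 2). *C8B*, the match of a chain of the membrane attack complex, fell from 38.7 and 24.8 TPM to 2.74 and 3.75 (-2.81 ± 0.48), at the end of a decline from a mean of 487 in the unfertilized egg. In the NF-kappaB pathway *NFKB1* fell from 157 and 156 TPM to 45.5 and 60.3 (-1.10 ± 0.14) and its activating kinase match *IKBKB* from 36.3 and 33.3 to 10.8 and 10.4 (-1.24 ± 0.19), while *REL*, a factor of the same family, rose from 28.7 and 33 to 49.9 and 56.9 (1.26 ± 0.18).

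**Figure D4:**
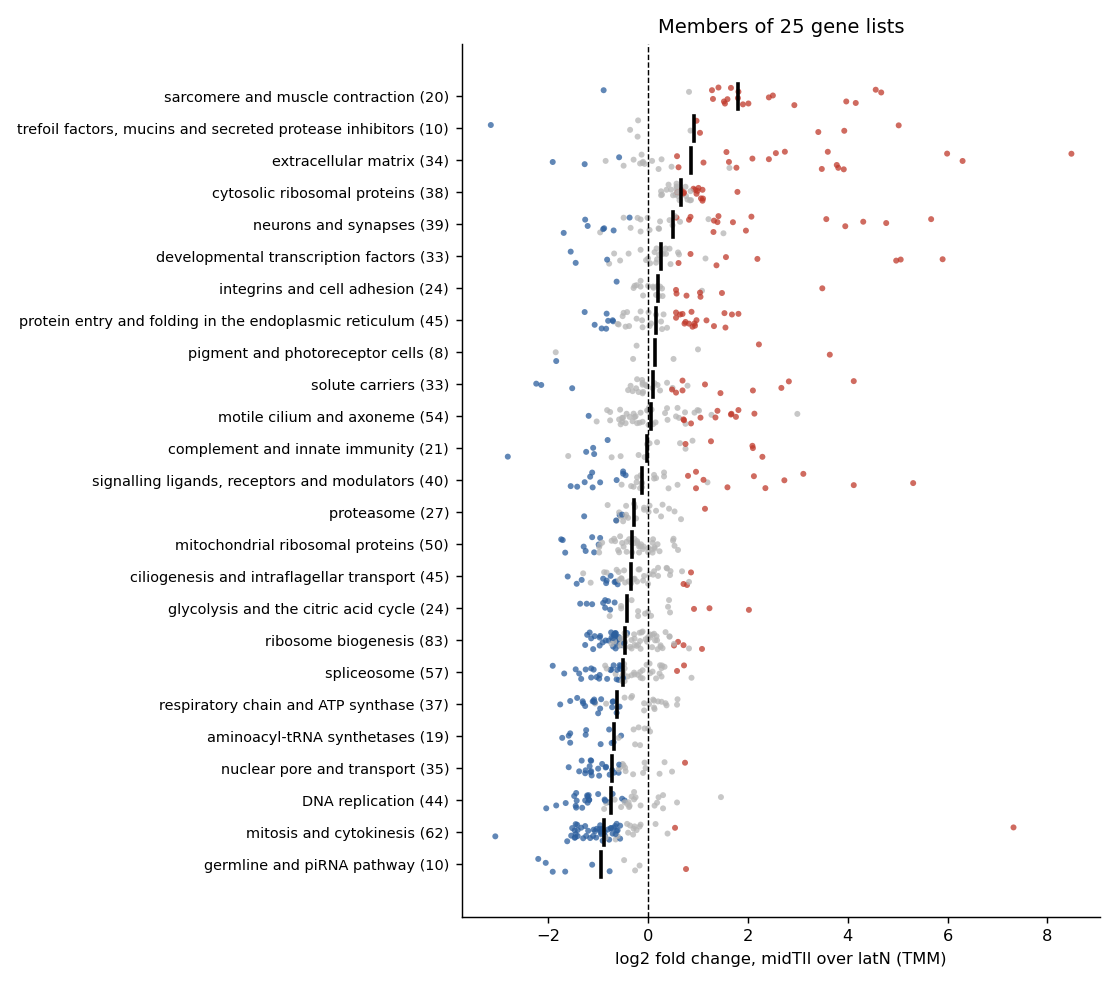
Each point is the fitted log2 fold change (midTII over latN, TMM) of 1 tested member of a list, in red where called higher, blue where called lower and grey where not called, with the number tested in brackets. Black bars are list medians, from -0.95 for the germline list to 1.80 for sarcomere genes, and the dashed line is the median of all 14623 genes, 0.00.

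Some of the largest changes lay outside the lists. *LYPD1*, a small GPI-anchored protein of the Ly6 family, rose from 0.29 and 0.362 TPM to 22.3 and 16.5 (6.37 ± 0.48), *GAL3ST3*, a sulfotransferase that acts on galactose, from 6.12 and 2.55 to 104 and 109.7 (5.08 ± 0.53), and *B4GALT4*, a galactosyltransferase, from 0.755 and 0.964 to 25.3 and 32 (5.50 ± 0.57). *ALPL*, an alkaline phosphatase, rose from 0.878 and 1.29 TPM to 20.8 and 24.8 (4.87 ± 0.36). Together with *MFNG*, these include 3 matches of enzymes that modify sugars in the Golgi apparatus. Among the falls, *LARP6*, an RNA-binding protein of the La family, dropped from 1087 and 1087 TPM to 30.3 and 27.8 (-4.75 ± 0.26, edgeR adjusted p = 4.2e-08) and *POFUT2*, which adds fucose to thrombospondin repeats, from 1692 and 1358 to 104 and 113 (-3.34 ± 0.20). *CNTRL*, the match of centriolin, fell from 24.2 and 36.7 TPM to 1.68 and 2.52 (-3.38 ± 0.43), *TTPAL*, a lipid transfer protein, from 49.8 and 85.4 to 3.85 and 1.7 (-4.12 ± 0.55), and the peptidase match *DPP4* from 18.3 and 18.8 to 2.18 and 1.68 (-2.79 ± 0.34). The fall of *HSCB*, an iron-sulfur cluster chaperone, rested on 1 library. It was at 5.89 and 68.5 TPM in latN and 1.63 and 1.25 in midTII, and its adjusted p was 0.16 without latN replicate 2 and 0.057 without midTII replicate 2.

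Most changed genes have no symbol here, and neither do most tested genes, of which 3815 of 14623 had one. Of the 2464 genes that rose, 1913 had none, while 1068 of the 2463 genes that fell had one. By the naming rule the largest rises among them were KY21.Chr13.82, from 0.717 and 1.56 TPM to 238 and 365 (8.53 ± 0.49), and KY21.Chr14.302, from 1.99 and 4.23 to 737 and 889 (8.51 ± 0.38). KY21.Chr5.396 fell from 2066 and 1822 TPM to 41.1 and 30.5 (-5.29 ± 0.28, edgeR adjusted p = 3.2e-08). Among the most abundant mRNAs, KY21.Chr9.560 rose from 487 and 789 TPM to 7494 and 4211 (3.69 ± 0.37) and KY21.Chr8.302 from 1560 and 1348 to 5643 and 5657 (2.43 ± 0.15), both entering the 5 most abundant of midTII. KY21.Chr4.92 left that group, falling from 4627 and 4867 TPM to 759 and 964 (-2.00 ± 0.25). *ACTB*, the match of a cytoplasmic actin and among the 5 most abundant at latN, rose from 4139 and 3155 TPM to 5353 and 5889 (1.09 ± 0.20).

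More genes were switched on than off. A gene counted as switched on when its TPM was under 2, the detection limit, in both latN libraries and at least 10 in both midTII libraries, and this held for 119 genes, 12 of them with a symbol, among these *LYPD1*, *COL12A1*, *MFNG*, *B4GALT4* and *ALPL*. It held in the reverse direction for 19 genes, 0 of them with a symbol. Of the 119, 110 had a mean TPM under 2 at every earlier stage, and 116 stayed at 2 or more at both later stages. Their highest mean fell in midTII for 17 genes, in the late tailbud II for 43 and in the larva for 59. Of the 19 switched off, 16 had been detected before latN. The count of genes switched on was 184 without midTII replicate 1. The count of genes switched off was 57 without latN replicate 1, 49 without latN replicate 2, 51 without midTII replicate 1 and 41 without midTII replicate 2, so it depends on single libraries.

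Placed in the whole time course, most of the genes called here had their highest level at some other stage. By mean TPM, 608 of the 2464 genes that rose had their highest stage in midTII, 659 in the late tailbud II and 808 in the larva. These are 24.7%, 26.7% and 32.8%, against 8.6%, 10.5% and 16.7% of all tested genes. Other genes that rose were highest early, 65 in the unfertilized egg, 207 in the fertilized egg and 78 in the 16-cell embryo. Of the 2463 that fell, 1202 were highest in the initial gastrula, 564 in the fertilized egg, 327 in the 16-cell embryo and 212 in latN. These are 48.8%, 22.9%, 13.3% and 8.61%, against 20.4%, 18%, 8.84% and 11.6% of all tested genes. Both sets were chosen by the difference between latN and midTII in these same libraries, so part of each contrast with all tested genes is built in. By mean TPM, 7 of the genes that rose were highest in latN, and 0 of those that fell were highest in midTII. With TMM-scaled counts, 879 of the falls were highest in the gastrula, 433 in the fertilized egg and 405 in the 16-cell embryo. The unfertilized egg then held 354, in place of 137 by TPM, and latN held 349. The lists show the same courses in their levels. Sarcomere genes had a mean summed TPM of 725 in the gastrula, 4581 in latN, 10347 in midTII, 11729 in the late tailbud II and 8755 in the larva. Extracellular matrix genes went from 4114 in latN and 11108 in midTII to 19299 in the late tailbud II. Mitosis genes had a mean of 9014 in the gastrula, 6936 in latN, 2972 in midTII and 1728 in the larva, and DNA replication genes 5695, 3618, 1554 and 1357 at the same stages.

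**Figure D5:**
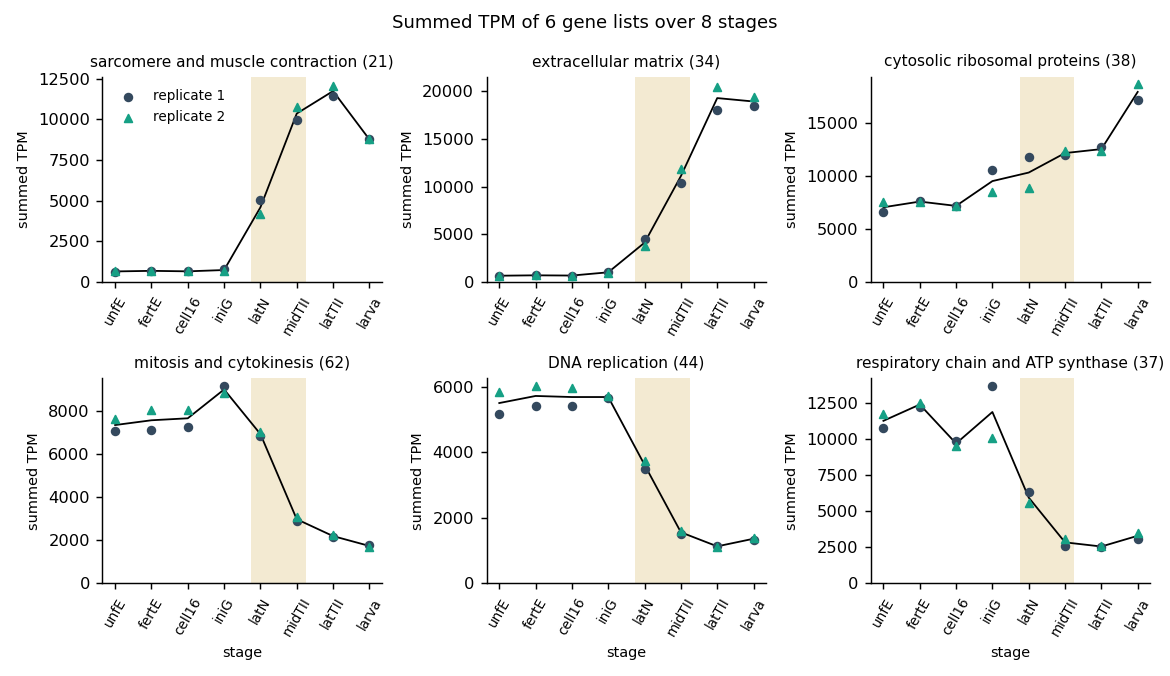
Summed TPM (y axis, from 0) of 6 gene lists at each of the 8 stages, with circles for replicate 1, triangles for replicate 2, a line through the means and the interval from latN to midTII shaded, and the number of genes in brackets. Sarcomere and matrix lists climb from 4581 and 4114 in latN to 10347 and 11108 in midTII, mitosis, replication and respiratory chain lists fall to 2972, 1554 and 2821, and the ribosomal protein list shows the widest gap between latN replicates.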

How the data were processed

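RNA-seq of whole *Ciona robusta* embryos, 2 replicates at each of 8 stages, was used as deposited. By the methods of the study, paired reads of 61 bases were checked with FastQC, trimmed with Trim Galore and assigned by Salmon to KY21 transcripts, and values were summed for each gene. The authors deposited Salmon's estimated counts without normalization, and these were rounded to whole numbers here. The TPM deposited by the authors were used for levels. The deposited values normalized with DESeq2 were not used.

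The 2 stages were compared in R 4.3.3 with edgeR 4.0.16, as the contrast midTII minus latN of a model with 1 term per stage over all 16 libraries. It used TMM factors, filterByExpr by stage and robust quasi-likelihood F-tests. P-values were adjusted over all rows tested by the Benjamini-Hochberg method. A standard error is the size of the log2 fold change divided by the square root of F. ENSCING rows were kept in the scaling and left out of the counts of genes. Alternatives used DESeq2 1.42.0, limma 3.58.1 on log2(TPM + 1) with a pseudocount of 1, RLE factors, library totals, other filters, a replicate block, and each library left out in turn. Replicates of a stage differed by more than sampling noise (chi-square per gene 49.6 at latN and 46 at midTII). By the study's methods, the replicates of a stage came from separate fertilizations, 1 of them shared with its protein measurements, but replicate numbers are not assigned to either, so p-values measure the spread between these samples. The test was checked on simulated data. Tables were made with Python 3.11.15, numpy 2.4.6 and pandas 2.3.3.

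Symbols were taken from tables of the study that were held in part (2548 human and 1285 frog matches), so lists are described by counts and medians, with no set test. The 25 lists, the tests and the interval were chosen with earlier results of these data known. Named genes have a symbol and are the 12 largest rises and falls past the test whose mean TPM reached 10 in the higher stage, whose stages do not overlap and which have more than 3 counts in each library of the lower stage. For each list the 3 largest rises and falls, without that minimum, and the most abundant member were added, as were any transcription factor or signalling gene, the 5 most abundant genes of each stage, 2 rises and 2 falls without a symbol, and markers of muscle, neurons, pigment cells, notochord and germ line. The text uses part of these. A second gene with a named symbol is given for part of these symbols. Among those not described above are second genes of *TTPAL* (log2 fold change -0.60), *ALPL* (2.22) and *ACTB* (0.51), none of them called with TMM. Salmon divides reads between similar copies, so paralogs are less certain. No sequence or position is given, since no genome was used here.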

Additional observations from a re-analysis of the deposited data

How the results depend on the processing

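The number of genes called was 4927 and ranged from 4678 to 6847 over the other scalings, tools and filters, with 3240 when a log2 fold change of at least 1 was required (1357 of them lower). The balance of directions changed with the scaling. With library totals 1600 genes were higher and 4355 lower (share higher 26.9%, median -0.41), limma gave 4864 lower (29%, -0.34), RLE factors 61.6% higher (0.18) and DESeq2 61.1% (0.18). Over all lists, 160 members were higher and 256 lower. These counts were 97 and 433 with library totals, 96 and 461 with limma and 105 and 128 at a log2 change of at least 1. Leaving out a library gave 1615 to 1900 genes higher, the lowest without latN replicate 2. Genes switched on numbered 257 with an upper limit of 5 TPM and 62 with a lower limit of 1 TPM, genes switched off 80 and 5, and leaving out a library gave 152 to 184 switched on and 41 to 57 switched off. Genes lower whose peak was latN numbered 212, or 349 on TMM-scaled counts.

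List medians relative to all genes changed sign in 5 lists whose median was near 0. With limma they were -0.01 for pigment cells, -0.04 for motile cilium and -0.04 for solute carriers. Leaving out a library gave -0.17 (without midTII replicate 2) to 0.15 (without latN replicate 2) for pigment cells, -0.12 (without midTII replicate 2) to 0.10 (without midTII replicate 1) for signalling and -0.15 (without latN replicate 1) to 0.14 (without latN replicate 2) for complement. Complement stood at 0.03 with at least 50 counts in 2 libraries. Of 161 named genes called, 21 calls were lost with library totals, 20 with limma, 11 with RLE factors and 28 to 32 with a library left out, and 0 reversed.

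Replicate numbers were not taken as pairs, since the deviations of same-numbered latN and midTII libraries correlated at 0.0314, although those of the unfertilized egg, fertilized egg and 16-cell embryo correlated at 0.705 to 0.758 and those of the gastrula and latN at 0.589. With the replicate block 5130 genes were called, 2566 higher and 2564 lower, 4 named calls were lost and the median of solute carriers became -0.00. Depth limits the size of the change in 171 genes that rose and 32 that fell, whose lower stage held 3 or fewer counts in each library.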
